A study of Mus musculus with 8 samples.

Results

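The genes described here are those named as subunits of respiratory complexes II, III, IV and V, the part of the oxidative phosphorylation machinery other than complex I. Members were the protein-coding genes with the symbols Sdha to Sdhd and Cyc1, those whose symbols begin with Uqcr, Cox4, Cox5, Cox6, Cox7, Cox8 or Atp5, and the mitochondrially encoded mt-Cytb, mt-Co1, mt-Co2, mt-Co3, mt-Atp6 and mt-Atp8. This rule used names and no measured value, but it was chosen with earlier results of these data known. It found 54 of the 53465 genes in the count table. Complex II had 4 members, complex III 10, complex IV 21 and complex V 19, of which 48 were encoded in the nucleus and 6 in mitochondrial DNA. By symbol, Cox7a2l was counted with complex IV and Atp5s with complex V, whether or not they are structural subunits.

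Polyadenylated RNA was sequenced from mouse heart ventricles at embryonic day 15.5, with 4 libraries from WT hearts and 4 from hearts with the genotype Nrg-1flox;Cdh5-CreERT2, named Flox from here on. Nrg1 encodes neuregulin-1, a growth factor that endocardial and endothelial cells present to cardiomyocytes, and Cdh5-CreERT2 is a tamoxifen-inducible recombinase driven in endothelial cells. The comparison asks how ventricular gene expression differs when this allele combination is present. The strain, the tamoxifen schedule, and whether WT embryos carried Cre or received tamoxifen were not given in the sources used here, and the labels do not say whether the libraries of a group came from separate litters, so p-values measure only the spread between these samples.

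Library totals ran from 16761763 expected counts (Flox 4) to 24144272 (Flox 2). All values below are CPM, counts relative to the library total, scaled with the TMM method. Nrg1 itself was not lower in the Flox libraries, at 4.87 ± 0.636 CPM in WT and 6.17 ± 0.611 CPM in Flox (SD, n = 4 each, log2 fold change 0.34, adjusted p = 0.311, edgeR quasi-likelihood test with Benjamini-Hochberg adjustment), so each direction below is that of the libraries labelled Flox. Counts over the whole gene cannot show whether its floxed exons were removed. All 10 ventricular cardiomyocyte markers were above 1 CPM, with summed levels of 45630 to 48900 CPM in WT and 44830 to 50060 CPM in Flox, and all 4 liver markers were below 1 CPM.

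Complex II (succinate dehydrogenase) takes electrons from succinate, complex III (cytochrome bc1) passes electrons from ubiquinol to cytochrome c, complex IV (cytochrome c oxidase) hands them to oxygen, and complex V (ATP synthase) uses the resulting proton gradient to make ATP. Complex II is encoded wholly in the nucleus, while the other complexes combine nuclear subunits with a catalytic or membrane core encoded in mitochondrial DNA. Several complex IV subunits exist as paired isoforms, and in the heart the muscle forms Cox6a2, Cox7a1 and Cox8b gain ground over the widely expressed Cox6a1, Cox7a2 and Cox8a as the organ matures.

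Cox6a1, Cox8a and Cox5b rose in the Flox libraries, by 1.165-fold to 1.197-fold. They were 3 of the 16 tested nuclear subunits of complex IV, and 11 of those 16 had a fitted log2 fold change below 0. No subunit of complex II, III or V was called, and the difference between complexes was not tested. Of the 54 members, 52 had enough reads to be tested, and Cox7b2 (0 to 4 counts in a library) and Cox8c (0 counts in every library) did not. The 3 members called higher at an adjusted p below 0.05 made 5.77% of the 52 tested, against 0.312% of all 15388 genes tested called higher and 0.526% called in either direction. No member was called lower by the quasi-likelihood test, where 0.214% of all tested genes were; DESeq2 and the edgeR likelihood ratio test each called 1 member lower (Atp5g2), and limma voom called 0. At an unadjusted p below 0.05 there were 9 of the 52 tested members, 5 higher and 4 lower, against 1622 of all 15388 tested genes (10.5%). These counts were 11 higher and 4 lower without Flox 4, against 1960 of 15593 tested genes in that fit. With the summed level of Y-linked genes as a covariate they were 3 higher and 17 lower, against 1513 of 15388 tested genes. With near-identical gene copies summed, as described below, they were 4 higher and 3 lower, against 1621 of 15378 tested genes.

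Most of the machinery differed little between the groups. In 45 of the 52 tested members the fitted log2 fold change was within 0.1 of 0, and the median was -0.015 over all tested members against -0.0012 over all tested genes. WT and Flox values did not overlap for 4 members that were higher in Flox (7.69%, against 3.07% of all tested genes) and 3 that were lower (5.77%, against 2.98%), where 6.05% of all tested genes did not overlap in either direction. The former were Cox6a1, Cox8a, Cox5b and Atp5d, and the latter Cox6b2, Atp5g2 and mt-Cytb.

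**Figure D1:**
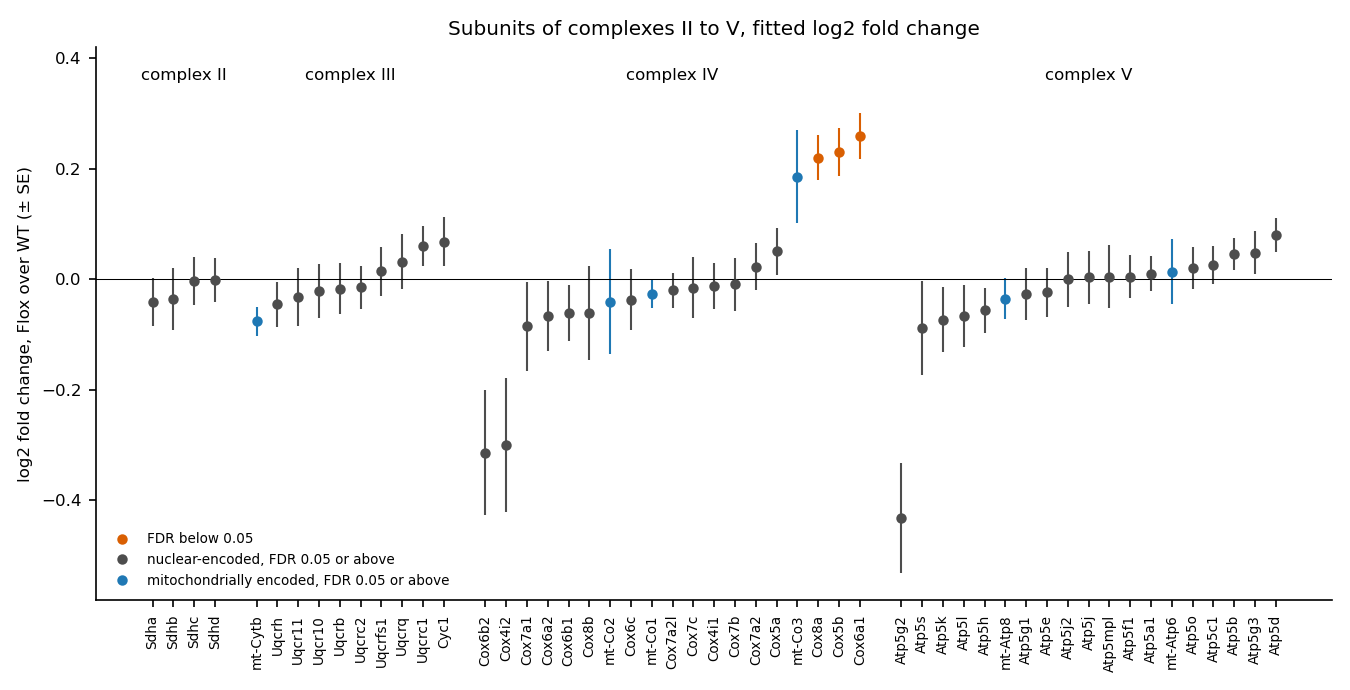
Fitted log2 fold change of Flox over WT (y axis) for the 52 tested subunits, ordered by complex along the x axis, with bars of ± 1 SE and 4 libraries in each group. Cox6a1, Cox8a and Cox5b, the members with an adjusted p below 0.05, stand at 0.22 to 0.26, and most other points lie within 0.1 of 0.

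Cox6a1 encodes the widely expressed form of subunit 6a, which sits on the dimer interface of cytochrome c oxidase. It lies on chromosome 5 (GRCm38, 115345642 to 115348981, minus strand). Its level was 320.5, 280.9, 293.7 and 288.4 CPM in WT libraries 1 to 4, and 353.3, 360.2, 363.5 and 339.8 CPM in Flox libraries 1 to 4. Every Flox library was above every WT library, and Flox 4 was the lowest of the Flox libraries. The means were 295.9 ± 17.2 and 354 ± 10.5 CPM (SD, n = 4 each), a log2 fold change of 0.26 (SE 0.0417, adjusted p = 0.0208, edgeR quasi-likelihood test with Benjamini-Hochberg adjustment).

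Cox8a encodes the widely expressed form of subunit 8, a small single-span membrane subunit, and lies on chromosome 19 (7215153 to 7217616, minus strand). It measured 270.5, 253.5, 245.1 and 256.5 CPM in WT, against 289.5, 284.4, 311.9 and 308.8 in Flox. The groups again did not overlap, and Flox 4 was the next to highest of the 8 libraries. The mean rose from 256.4 ± 10.6 to 298.6 ± 13.7 CPM (SD, n = 4 each), a log2 fold change of 0.22 (SE 0.0407, adjusted p = 0.0415, edgeR quasi-likelihood test).

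Cox5b encodes a zinc-binding subunit on the matrix face of the enzyme and lies on chromosome 1 (36691449 to 36693681, plus strand). It measured 214, 194.5, 201.1 and 190.9 CPM in WT, against 221.2, 231.3, 248.6 and 237.8 in Flox. The highest WT library and the lowest Flox library were close, but did not cross. The log2 fold change was 0.23 (SE 0.0442, adjusted p = 0.0454, edgeR quasi-likelihood test), between means of 200.2 ± 10.2 and 234.8 ± 11.5 CPM (SD, n = 4 each).

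These calls sat near the threshold. With 1 library left out, Cox6a1 passed only without WT 1 or Flox 4, Cox8a only without WT 1, Flox 2 or Flox 4, and Cox5b only without WT 1, so that no member passed without WT 2, WT 3, WT 4, Flox 1 or Flox 3. The log2 fold changes stayed between 0.20 and 0.30 in these fits. The summed level of 4 Y-linked genes ran from 69.5 to 171 CPM in WT and from 42.8 to 120 CPM in Flox. With that sum as a covariate no member passed, although the log2 fold changes were 0.24 for Cox6a1 (SE 0.0527, adjusted p = 0.14, edgeR quasi-likelihood test), 0.25 for Cox8a (SE 0.0491, adjusted p = 0.0903) and 0.23 for Cox5b (SE 0.056, adjusted p = 0.185).

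**Figure D2:**
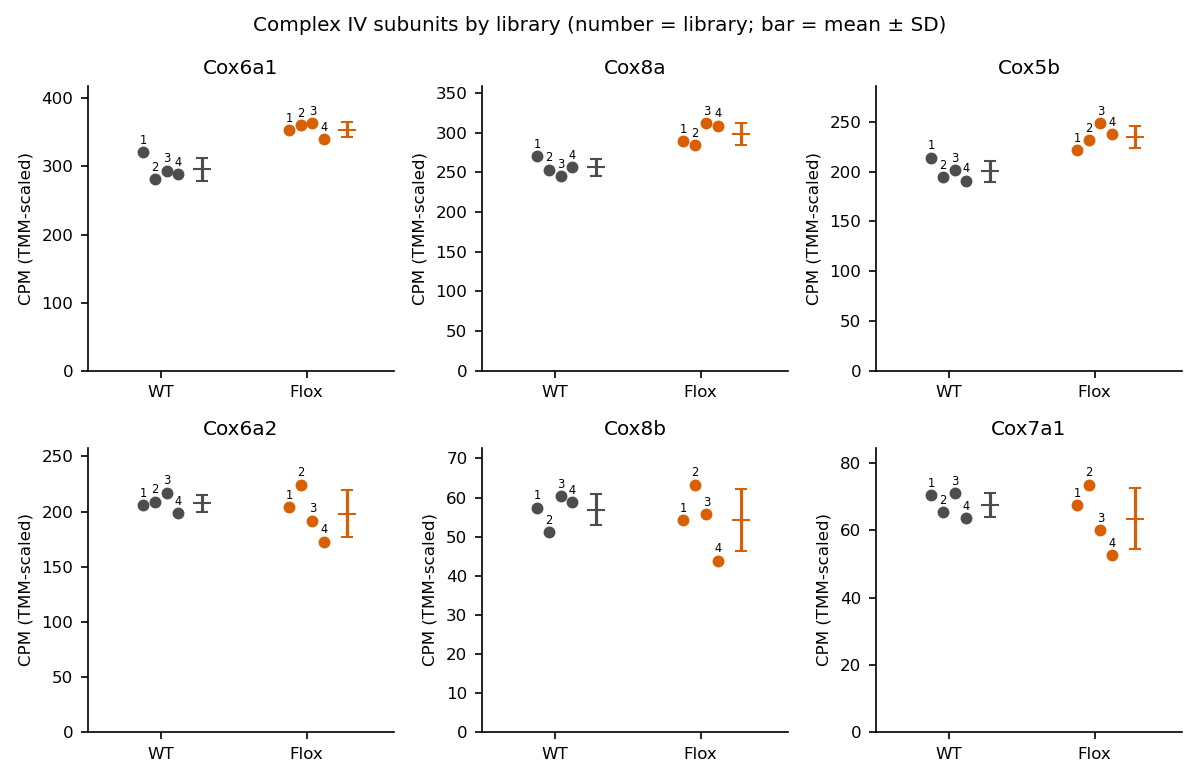
Level in CPM (y axis, from 0) of 6 complex IV subunits in the 4 WT and 4 Flox libraries, with points numbered by library and bars giving the mean ± SD. In the upper row Cox6a1, Cox8a and Cox5b are higher in every Flox library than in any WT library, and in the lower row the muscle isoforms Cox6a2, Cox8b and Cox7a1 overlap between groups.

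The bases before the transcription starts of the called genes are shown because the widely expressed subunits are known for promoters rich in sites of nuclear respiratory factor 1 (NRF1), and Cox8b is set beside them as a muscle isoform. The sequences are RefSeq's on GRCm38.p6, cover up to 250 bases before the RefSeq start, and stop where the annotated gene begins. Capitals mark matches to the palindromic NRF1 motif or, in Cox8b, to the E-box CAGCTG, searched on both strands.
Cox6a1, chr5:115348982-115349208, minus strand: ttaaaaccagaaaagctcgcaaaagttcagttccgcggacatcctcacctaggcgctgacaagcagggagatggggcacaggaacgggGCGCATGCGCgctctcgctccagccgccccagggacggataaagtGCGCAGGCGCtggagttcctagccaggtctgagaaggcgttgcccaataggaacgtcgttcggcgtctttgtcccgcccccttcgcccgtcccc
Cox8a, chr19:7217617-7217866, minus strand: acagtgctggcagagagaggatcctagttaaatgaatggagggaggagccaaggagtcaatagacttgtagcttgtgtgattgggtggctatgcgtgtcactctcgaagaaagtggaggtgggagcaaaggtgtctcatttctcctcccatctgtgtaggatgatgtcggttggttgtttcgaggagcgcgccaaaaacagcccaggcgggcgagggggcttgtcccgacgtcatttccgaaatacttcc
Cox5b, chr1:36691237-36691448, plus strand: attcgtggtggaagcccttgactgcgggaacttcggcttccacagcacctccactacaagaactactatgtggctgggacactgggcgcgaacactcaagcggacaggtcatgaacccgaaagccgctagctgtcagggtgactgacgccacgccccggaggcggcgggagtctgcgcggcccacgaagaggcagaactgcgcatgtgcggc
Cox8b, chr7:140900447-140900696, minus strand: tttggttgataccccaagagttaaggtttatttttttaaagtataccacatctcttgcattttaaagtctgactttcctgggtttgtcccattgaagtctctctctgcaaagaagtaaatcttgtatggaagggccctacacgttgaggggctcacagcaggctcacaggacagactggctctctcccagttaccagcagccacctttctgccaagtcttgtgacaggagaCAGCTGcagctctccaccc
Cox6a1 held a pair of matches to the NRF1 motif, which began 162 and 117 bases before the RefSeq start, whereas the letters searched were absent from the Cox8a and Cox5b windows. The tables had a window for 34 of the 54 members. The NRF1 letters occurred in 7 of these (20.6%), against 4.23% of 27018 genes, and 6 of the 7 were not called: Sdha, Sdhd, Atp5c1, Atp5g2, Atp5h and Atp5k. The ETS-family letters CCGGAAG occurred in 9 of the 34 windows (26.5%, against 7.83% of all genes), among them Cox6a1, in bases not printed above. The YY1 letters AAGATGGC occurred in 1 of 34 (2.9%, against 1.82%), CAGCTG in 2 (5.9%, against 14.73%) and TATAAA in 2 (5.9%, against 14.33%).

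The muscle partners of the called isoforms were not called. Cox6a2 measured 205.6, 209.1, 217.3 and 198.9 CPM in WT, against 204, 224.4, 191.8 and 172.9 in Flox. The groups overlapped, with Flox 2 the highest and Flox 4 the lowest of all libraries (log2 fold change -0.07, 95% confidence interval -0.20 to 0.07, adjusted p = 0.79, edgeR quasi-likelihood test). Cox6a2 lies inside the gene body of Itgad on the other strand, which had a mean count of 1.17. Cox8b measured 57.4, 51.1, 60.3 and 58.8 CPM in WT, against 54.2, 63.3, 55.7 and 43.8 in Flox, with the same libraries at both ends (log2 fold change -0.06, interval -0.25 to 0.12, adjusted p = 0.876). Within family 7a, muscle Cox7a1 measured 67.6 ± 3.66 CPM in WT and 63.4 ± 9.1 CPM in Flox (log2 fold change -0.09, interval -0.26 to 0.09), and its widely expressed partner Cox7a2 measured 262.4 ± 5.17 and 266.6 ± 16.5 CPM (0.02, interval -0.07 to 0.11). Cox7a2l, which joins complexes III and IV in supercomplexes, measured 239.3 ± 2.46 and 236 ± 7.51 CPM (SD, n = 4 each).

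Per kilobase of transcript, the widely expressed form outweighed the muscle form in each of the 3 families in all 8 libraries. Cox6a2 made up 35, 38.5, 38.3 and 36.7% of the Cox6a level in WT libraries 1 to 4, and 32.7, 34.4, 30.7 and 29.9% in Flox libraries 1 to 4. Every Flox share was below every WT share. The log2 ratio of Cox6a2 to Cox6a1 was 0.33 lower in Flox (difference -0.33, exact permutation test, two-sided, p = 0.0286, the smallest that the 70 splits of 8 libraries allow, and 0.0858 after Benjamini-Hochberg adjustment over the 3 ratios). This ratio contains the called Cox6a1 and is not independent of it.

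The Cox8b share of the Cox8 level was 24.5, 23.6, 27.3 and 26% in WT and 22.2, 25.4, 21.4 and 17.8% in Flox. Flox 2 lay among the WT values and Flox 4 was the lowest. The difference in log2 ratio was -0.30 (exact permutation p = 0.0857, adjusted 0.129). The Cox7a1 share was 30.2 ± 1.18% in WT and 28.4 ± 1.82% in Flox (SD, n = 4 each), a difference in log2 ratio of -0.12 (exact permutation p = 0.171, adjusted 0.171). Without Flox 2, the differences reached -0.39 for Cox6a and -0.40 for Cox8, each with an adjusted p of 0.0429 by the same exact test. Flox 2 had the highest Flox share in both families, and without it neither family overlapped between groups. Fewer splits are then possible, and the unadjusted p was the smallest that they allow. Without Flox 4 the differences were -0.29 for Cox6a (adjusted p = 0.171, exact permutation test), -0.18 for Cox8 (adjusted p = 0.257) and -0.08 for Cox7a (adjusted p = 0.371).

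**Figure D3:**
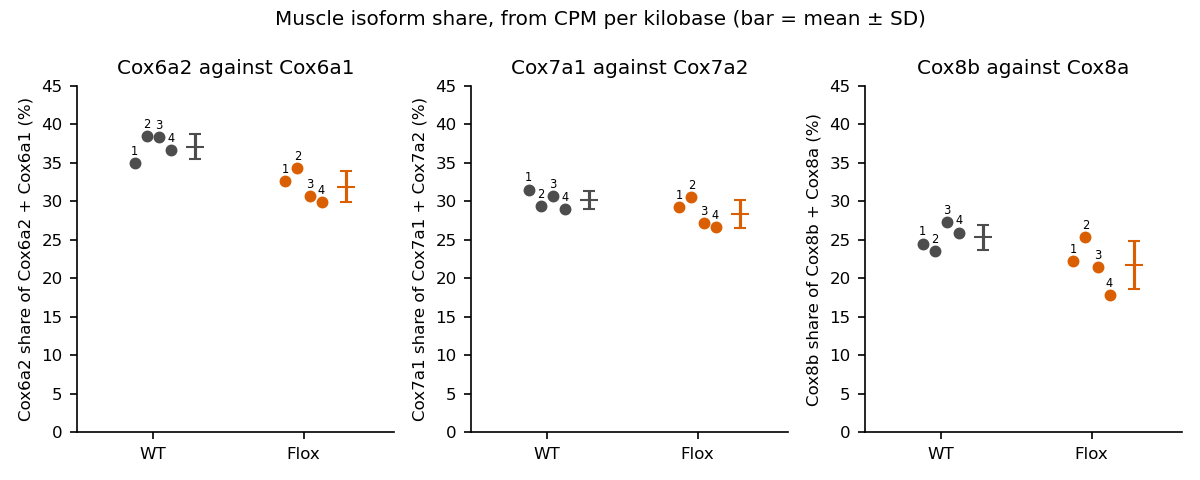
Share of the muscle isoform in its pair (y axis, percent of CPM per kilobase) for Cox6a2, Cox7a1 and Cox8b in each WT and Flox library, with the mean ± SD beside the points. The Cox6a2 share was 37.1 ± 1.62% in WT and 31.9 ± 1.99% in Flox without overlap, while the other shares overlap.

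The remaining isoform pairs of complex IV are dominated by a single partner. Cox4i1, the main form of the subunit through which ATP inhibits the enzyme, was the most abundant nuclear subunit of complex IV per kilobase, at 759.2 ± 12.3 CPM in WT and 752.7 ± 49.4 CPM in Flox. It lies inside the gene body of Gm20388 on the same strand, which had a mean count of 2920 against 16320 for Cox4i1. Cox4i1 counts were not whole in any library. Its oxygen-responsive alternative Cox4i2 stood at 5.42 ± 0.55 and 4.4 ± 0.503 CPM (log2 fold change -0.30, SE 0.121, adjusted p = 0.4, edgeR quasi-likelihood test), or 0.727% and 0.597% of the Cox4i level per kilobase. Cox6b2, the form known from testis, had the lowest log2 fold change of complex IV, at 6.61, 6.01, 5.52 and 5.84 CPM in WT, against 5.41, 4.24, 4.48 and 5.24 in Flox. These did not overlap, but the fitted log2 fold change of -0.31 (SE 0.113) had an adjusted p of 0.332. Its abundant partner Cox6b1 measured 405.2 ± 5.57 and 388.3 ± 32.7 CPM. Over the 16 tested nuclear subunits of complex IV the median log2 fold change was -0.018, with 5 above 0 and 11 below.

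The subunits of complex II lay close together. All 4 had fitted log2 fold changes just below 0, from -0.041 (Sdha) to -0.0012 (Sdhd), and none was called. Sdha, the flavoprotein that oxidises succinate, measured 829.6, 786.6, 846 and 772.2 CPM in WT, against 831.5, 797.1, 793.6 and 721.2 in Flox, overlapping except for the low Flox 4. Sdhb, the iron-sulphur subunit and the highest of complex II per kilobase, measured 351.6 ± 17.3 and 342.9 ± 29.6 CPM (SD, n = 4 each). Summed over the 4 subunits, complex II stood at 1800 ± 58.1 and 1767 ± 104.8 CPM.

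Complex III was as even, with 4 of its 9 nuclear subunits above 0 and 5 below, a median of -0.015 and none called. Cyc1, the cytochrome c1 haem protein, had its largest positive value (0.07, SE 0.0442, adjusted p = 0.643, edgeR quasi-likelihood test), at 463.2 ± 12.4 CPM in WT and 485.5 ± 32.1 CPM in Flox. The core protein Uqcrc1 measured 540.8 ± 8.12 and 563.6 ± 27.6 CPM (0.06, adjusted p = 0.613). The hinge protein Uqcrh, the most abundant nuclear subunit of this complex per kilobase, had the lowest value (-0.05, adjusted p = 0.768), at 330.3 ± 6.35 and 320 ± 18.5 CPM.

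Complex V had 9 of its 17 nuclear subunits above 0 and 8 below, with a median of 0.0033. Atp5b, the catalytic beta subunit, was the most abundant nuclear member of all per kilobase, at 3771 ± 88.6 CPM in WT and 3891 ± 137.3 CPM in Flox (0.05, adjusted p = 0.632, edgeR quasi-likelihood test). Atp5d, the delta subunit of the rotor stalk, was separated between groups without passing the test: 326.8, 311.2, 323.6 and 312.7 CPM in WT, against 336.9, 343.4, 337.1 and 329 in Flox. Each Flox library was higher, but the log2 fold change was 0.08 (SE 0.0305, adjusted p = 0.364). Atp5d overlaps Cbarp on the other strand, which had a mean count of 117.1 against 7044 for Atp5d. The summed nuclear subunits of complex V measured 11764 ± 197.5 and 11920 ± 573.6 CPM.

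Atp5g2, which encodes an isoform of the c-ring subunit, had the lowest log2 fold change of all members. It measured 35.7, 31.2, 35.1 and 38.8 CPM in WT, against 29.9, 29.3, 23.7 and 21 in Flox, without overlap. The fitted log2 fold change was -0.43 (SE 0.099, adjusted p = 0.0817, edgeR quasi-likelihood test). A transcribed pseudogene, Gm10175 (chromosome 7, 23946646 to 23947290), is identical to Atp5g2 over 441 bases, and expected counts are divided between such copies by estimation. Gm10175 held 87.4% of the combined count, and another identical copy, Gm10231, had a mean count of 0.0. Summed with these copies, Atp5g2 measured 247.5 ± 5.02 CPM in WT and 243.3 ± 14.4 CPM in Flox, with a log2 fold change of -0.02 (adjusted p = 0.899), so that the level of Atp5g2 alone is uncertain.

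The mitochondrially encoded subunits made up 4.05% of all counts in WT and 4.04% in Flox, against 2.06% and 2.08% for the nuclear members together. None of the 6 was called. mt-Co1, which holds the haem and copper centre where oxygen is reduced, was the most abundant member, at 17277 ± 344.1 CPM in WT and 16961 ± 652.1 CPM in Flox (log2 fold change -0.03). mt-Cytb, the cytochrome b of complex III, measured 6704, 6677, 6612 and 6520.3 CPM in WT, against 6492, 6351, 6353 and 5952 in Flox. All Flox libraries were lower, and the log2 fold change was -0.08 (SE 0.0261, adjusted p = 0.298, edgeR quasi-likelihood test). The membrane subunits of complex V overlapped between groups, with mt-Atp6 at 4883 ± 372.2 and 4930 ± 400.7 CPM and mt-Atp8 at 1137 ± 43.2 and 1110 ± 44.4 CPM. These last genes overlap by 43 bases, less than the read length of 60 bases, and the mt-Atp8 counts were whole in every library.

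Nuclear copies shared reads with some of the mitochondrial genes. mt-Co3, a core subunit of complex IV, measured 3949, 3964, 4866 and 5197 CPM in WT, against 5062, 5597, 5213 and 4574 in Flox. The WT libraries split into a lower and a higher pair, and the log2 fold change was 0.19 (SE 0.0833, adjusted p = 0.458). Adding its nuclear copy Gm28437, which held 23% of the combined count, gave 6329 ± 86.8 and 6134 ± 310 CPM and a log2 fold change of -0.05 (adjusted p = 0.662). The pooled SD within groups on the log2 scale went from 0.167 to 0.0541. mt-Co2, which receives electrons from cytochrome c, had an SD of 0.196 alone and 0.0795 with its copies, and its log2 fold change was -0.04 in both forms. For mt-Atp6, the nuclear copy Gm10925 held 12% of the combined count. Its SD was 0.116 alone and 0.0649 with the copy, and its log2 fold change went from 0.014 to -0.031.

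Among the called members, only Cox5b had a near-identical copy with a sizeable count. Gm11273 (chromosome 13, 21501029 to 21501418), annotated as protein-coding, is 99.231% identical to Cox5b over 390 bases and held 12.1% of the combined count. The sum measured 239.8, 216.5, 226 and 214.3 CPM in WT, against 248.7, 265, 288.9 and 281.8 in Flox. The groups did not overlap, and the log2 fold change of 0.27 (SE 0.0496, adjusted p = 0.0367, edgeR quasi-likelihood test) was called. With all such copies summed, the called members were Cox6a1, Cox8a and Cox5b as before.

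**Figure D4:**
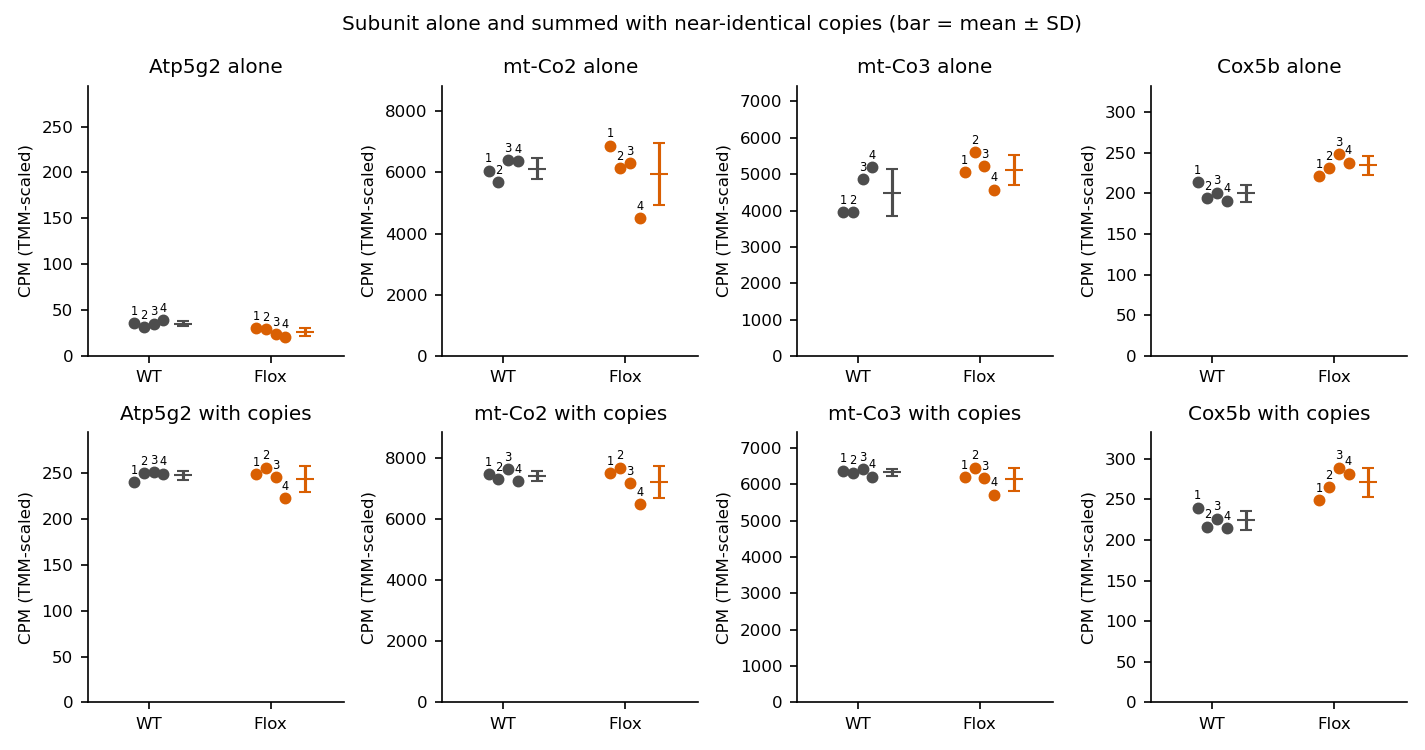
Level in CPM (y axis, from 0) of Atp5g2, mt-Co2, mt-Co3 and Cox5b in each WT and Flox library, alone in the upper row and summed with near-identical gene copies in the lower row, with the mean ± SD. Atp5g2 goes from 35.2 and 26 CPM alone to 247.5 and 243.3 CPM with its copies, and Cox5b is higher in Flox in both rows.

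The nuclear members varied together from library to library within the Flox group. Flox 4 was the lowest of the 8 libraries in 39 of the 46 tested nuclear members, against 15.9% of all tested genes, and Flox 2 was the highest in 37 of 46, against 12.5% of all tested genes. The median deviation of these members from their mean over the 8 libraries was 0.09 (log2) in Flox 2 and -0.14 in Flox 4, whereas the WT libraries lay between -0.028 and 0.036. The sum of ventricular cardiomyocyte markers was also highest in Flox 2 (50060 CPM) and lowest in Flox 4 (44830 CPM), and the sum of 9 erythroid markers was 5880 and 10010 CPM in these libraries, against 4303 to 9386 CPM in WT. Other sums moved with the same libraries: 6 macrophage markers stood at 106.4 CPM in Flox 4 (67.4 to 94.8 CPM in WT), and 6 skeletal muscle markers at 1988 CPM in Flox 2 and 1566 CPM in Flox 4 (1526 to 1848 CPM in WT), with Myod1, Myog and Myh3 each below 1 CPM. Among Flox libraries, fibroblast and mesenchyme (6414 CPM) and endothelial sums (1451 CPM) were highest in Flox 4, and the atrial sum (1853 CPM) in Flox 2. These highest values lay within the WT ranges. The endothelial sum ran from 1349 to 1451 CPM in Flox, with Flox 2 at 1394 CPM, against 1446 to 1486 CPM in WT. The fibroblast and mesenchyme sum ran from 5277 to 6414 CPM in Flox and from 5514 to 6487 CPM in WT. The atrial sum ran from 1706 to 1853 CPM in Flox and from 1739 to 1984 CPM in WT. The sum of 4 smooth muscle markers was higher in every Flox library (1659 to 1750 CPM) than in any WT library (1556 to 1653 CPM). The part of these sums in the pattern or in the group differences was not tested. In whole ventricles fewer cells of a type and less RNA per cell cannot be told apart.

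Flox 4 was the lowest library for all tested nuclear subunits of complexes II and III. Among the Flox libraries it was also the lowest for Cox6a1, whereas Cox8a was lowest in Flox 2 and Cox5b in Flox 1. Without Flox 4 the median log2 fold change of the nuclear members was 0.034, and without Flox 2 it was -0.042.

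**Figure D5:**
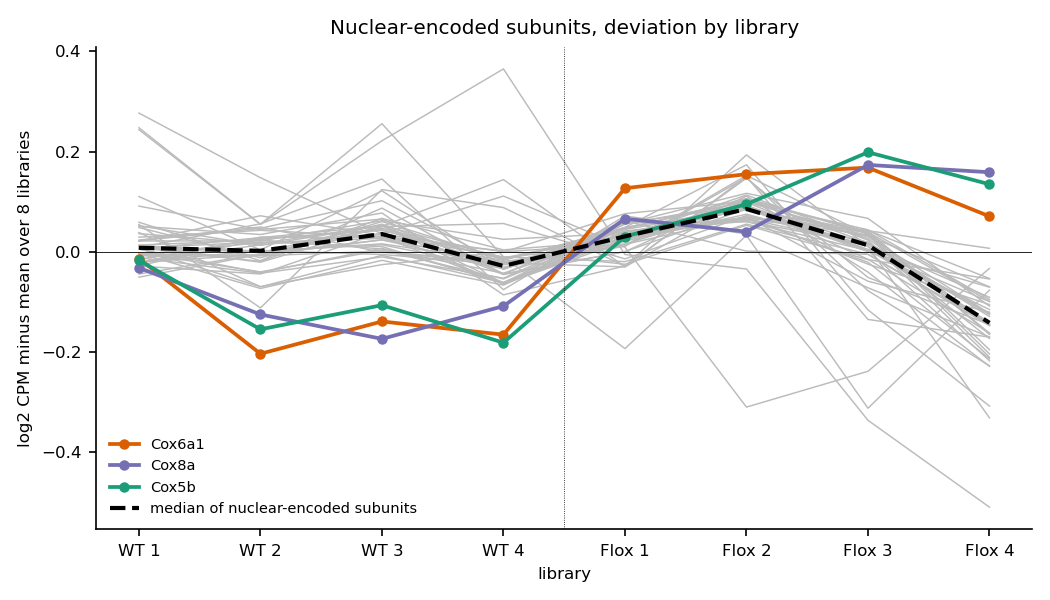
Deviation of each nuclear-encoded subunit from its mean over the 8 libraries (y axis, log2 CPM) in WT 1 to 4 and Flox 1 to 4 (x axis), with 1 grey line per subunit, Cox6a1, Cox8a and Cox5b in colour, and the median dashed. The median is 0.09 in Flox 2 and -0.14 in Flox 4, and most grey lines follow it.

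In sequence composition the called genes were not alike. The Cox6a1 transcript has a GC content of 62.7%, above that of 98.9% of tested genes, Cox8a has 58.5% (percentile 92.4) and Cox5b 49% (percentile 47.6). All are short, at 571, 550 and 865 bases (percentiles 2.93, 2.68 and 7.04 of tested genes). After a correction for GC content and length in each library, the log2 fold changes were 0.21 for Cox6a1 (adjusted p = 0.0333, edgeR quasi-likelihood test), 0.21 for Cox8a (adjusted p = 0.091) and 0.24 for Cox5b (adjusted p = 0.0502).

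The genes that build and regulate these complexes had no called member in the lists examined. Of 39 assembly factors of complexes II to V, all were tested and 0 passed, where 0.526% of all tested genes were called, with 7 at an unadjusted p below 0.05 (10.5% of all tested genes were), 23 above 0 and 16 below, and a median log2 fold change of 0.0049. Sco2, a copper chaperone for complex IV, had the smallest p, at 2.93 ± 0.314 CPM in WT and 4.29 ± 0.626 CPM in Flox without overlap (log2 fold change 0.55, SE 0.144, adjusted p = 0.134, edgeR quasi-likelihood test). Of 15 regulators and carriers, 0 passed and 1 had an unadjusted p below 0.05. That was Tfb2m, a mitochondrial transcription factor, at 33 ± 1.17 and 35.7 ± 1.2 CPM (0.12, adjusted p = 0.334).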

How the data were processed

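The authors deposited 1 table of gene-level expected counts, estimated with RSEM 1.3.1 after trimming with cutadapt and GRCm38 as the genome build, per the labels. Reads were single, of 60 bases, from a stranded poly(A) kit. The aligner and the strand setting of the counting were not given in the sources used here. RSEM divides reads among similar genes by estimation, and 18.1% of values were not whole. Counts were rounded. Of 53465 genes, 53360 matched the GENCODE M21 annotation. edgeR 4.0.16 (R 4.3.3) was used with filterByExpr, TMM scaling and the two-sided quasi-likelihood test of 4 Flox against 4 WT libraries, with Benjamini-Hochberg adjustment over all 15388 genes tested and a threshold of 0.05. On simulated data for 15221 genes it found 97 of 100 changes of log2 1 and 41 of 100 of log2 0.25, with 9 false calls among 147. The simulated counts were drawn independently for each gene, without shifts shared between genes such as those of Flox 2 and Flox 4. Changes were placed only in genes above a minimum mean count, so these rates need not hold for the members. Isoform ratios used CPM per kilobase and an exact permutation test. Copies were found with blastn 2.17.0 (at least 95% identity over at least 100 bases, and at least 50% of the copy). Totals of 16761763 to 24144272 counts limit precision mainly for members near 5 CPM.

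The members and lists were chosen with earlier results of these data known. Genes named were all called members, the isoform families, the mitochondrially encoded members, and for each complex the nuclear members with the highest level per kilobase, the smallest p and the largest change in each direction, plus the gene with the smallest p of each further list. Members described for copies, Cox7a2l and the Y-linked sum beside them were added after their values were seen. Alternatives changed the scaling, filter, test (DESeq2 1.42.0, limma 3.58.1), covariates and libraries.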

Additional observations from a re-analysis of the deposited data

Results flagged for a closer look

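In 58 groups of 4 libraries, 2 held a library far from the other 3 by Dixon's test, where about 2.9 would be flagged by chance. Cox6b1, a complex IV subunit, measured 413.6 CPM in WT 3 against 402.1 to 403.1 CPM in the other WT libraries. mt-Atp8, of complex V, measured 1043 CPM in Flox 4 against 1128 to 1135 CPM in the other Flox libraries.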

How the results depend on the processing

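The log2 fold changes of Cox6a1, Cox8a and Cox5b kept their direction in every alternative run, but their calls did not. The number of members called higher, 3 in the report, was 1 (Cox6a1) with library totals only, with the replicate block, with the GC and length correction and with both of these together, 0 with the Y-linked covariate and at a threshold of 0.01, and 0 to 3 with 1 library left out. The number called lower, 0 in the report, was 1 (Atp5g2) without a filter, by the likelihood ratio test, by DESeq2 and at a threshold of 0.1. Over all genes, 81 calls became 338 without a filter, 242 by the likelihood ratio test, 198 by DESeq2, 16 with the Y-linked covariate, 190 at a threshold of 0.1, 3 at 0.01 and 11 to 142 with 1 library left out. The Y-linked covariate moved the median log2 fold change to -0.089 for nuclear and -0.076 for mitochondrially encoded members, and leaving out 1 library to between -0.042 and 0.034, and between -0.041 and 0.033. Among isoform ratios, leaving out 1 library gave -0.39 to -0.29 for Cox6a and -0.40 to -0.18 for Cox8, and 16 sign flips of the replicate block cannot reach 0.05. The cause of these shifts was not tested.

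Signs turned for members that were not called: Cox4i1 was 0.030, Cox8b 0.023, mt-Co2 0.072 and Sdhb 0.0051 without Flox 4, and with other libraries left out they reached -0.044, -0.14, -0.12 and -0.093. Cox7a2 was -0.042 with the Y-linked covariate and -9.6e-05 to 0.065 with 1 library left out, and mt-Co3 was -0.045 with copies summed, a setting chosen after seeing the data. mt-Atp6 was -0.050 with the Y-linked covariate, -0.0032 with the GC and length correction, -0.0015 with that correction and the replicate block, -0.031 with copies summed, and -0.026 to 0.068 with 1 library left out. Same-numbered WT and Flox libraries had correlations of 0.122, 0.0522, 0.0395 and 0.124 in their deviations from the group means, not all above 0.1, so the numbers were not taken as pairs. Other pairs ran from -0.0943 to 0.0232, so that each library correlated best with its own number, a hint from the data and not from the design. The replicate block gave 93 calls over all genes, and adjusted p of 0.02 for Cox6a1, 0.0533 for Cox8a and 0.0571 for Cox5b, with log2 fold changes of 0.26, 0.22 and 0.23. It changed no other member's call. Removing mitochondrially encoded genes gives no value for those members.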
